A study of Homo sapiens with 10 samples.

Results

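Eye-field, pigment epithelium and epithelial identity genes were followed through 2 merbarone experiments in a human pigment epithelium cell line. The 10 genes are the eye-field and eye-development factors OTX2, PAX6, MITF, MAB21L1 and MAB21L2, the pigment epithelium genes BEST1, RPE65 and RLBP1, and the simple epithelial keratins KRT8 and KRT18. They were taken by name, with Ensembl identifiers matched to symbols, from 20327 genes in the deposited tables. All 10 were found, and 7 of them averaged 1 RPKM or more across the 10 libraries. RPKM is the number of reads per kilobase of gene, scaled to the total reads of the library.

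The cells were hTERT RPE-1, a wild-type human line of retinal pigment epithelium origin that carries telomerase to escape senescence, and every group was held for 48 h in DMEM F-12 with 0.1% serum. In the first experiment, 3 libraries from cells given 200 µM merbarone for 30 min were compared with 3 libraries from cells given DMSO for 30 min. In the second, 2 libraries from cells given 200 µM merbarone for 2 h were compared with 2 libraries from cells labelled untreated, with no vehicle named. Merbarone inhibits the catalytic cycle of topoisomerase II, an enzyme that relieves DNA supercoils, and the series concerns supercoiling and the pausing of RNA polymerase II near promoters. The labels do not say that libraries of a group came from separate cultures, so the spread between these libraries may be technical. The p-values rest on that spread and on a spread shared across genes. As a model the line is limited in that it is immortalised and grows outside the eye.

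The optic vesicle gives rise to neural retina and pigment epithelium. PAX6 acts early in the eye field, and MITF and OTX2 together drive the pigment epithelium programme. MAB21L1 and MAB21L2 are related nuclear proteins needed for normal lens and eye development. A mature pigment epithelium recycles visual chromophore with RPE65, the isomerase of the visual cycle, and RLBP1, a carrier of 11-cis retinoids, and carries BEST1, a chloride channel of its basolateral membrane. KRT8 and KRT18 pair to form the intermediate filaments of simple epithelia.

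Promoter sequence is shown for MAB21L1 and OTX2, because these genes moved together at 2 h and RefSeq entries were at hand for them (7 of the 10 genes matched). Each sequence is the 250 bases before a RefSeq start in build GRCh38.p14, read 5′ to 3′ on the strand of the gene. Capitals mark 3 motifs searched on both strands: TAATCC, a site read by OTX-type homeodomains, TAATTA, a general homeodomain site, and TATAAA, the TATA box. The MAB21L1 window is chr13:35476690-35476939 on the minus strand, and the 2 OTX2 windows are chr14:56810480-56810729 and chr14:56805668-56805917 on the minus strand.
MAB21L1: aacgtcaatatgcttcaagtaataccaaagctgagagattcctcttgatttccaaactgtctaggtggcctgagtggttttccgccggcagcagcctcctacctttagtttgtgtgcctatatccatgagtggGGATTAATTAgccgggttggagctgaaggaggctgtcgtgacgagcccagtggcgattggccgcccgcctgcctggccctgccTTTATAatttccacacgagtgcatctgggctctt
OTX2, start 1: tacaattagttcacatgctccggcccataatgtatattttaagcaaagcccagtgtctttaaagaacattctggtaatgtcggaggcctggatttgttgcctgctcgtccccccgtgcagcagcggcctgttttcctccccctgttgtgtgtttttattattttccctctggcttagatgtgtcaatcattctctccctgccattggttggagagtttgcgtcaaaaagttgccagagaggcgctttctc
OTX2, start 2: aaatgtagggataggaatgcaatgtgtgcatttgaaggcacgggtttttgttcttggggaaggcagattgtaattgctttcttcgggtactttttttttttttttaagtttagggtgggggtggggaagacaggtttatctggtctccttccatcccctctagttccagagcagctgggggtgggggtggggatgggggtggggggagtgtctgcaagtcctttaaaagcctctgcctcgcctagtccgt

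In the MAB21L1 window, TAATCC lay 117 bases before the start on the opposite strand, and TAATTA lay at 113 bases, overlapping it. A TATAAA on the opposite strand began 34 bases before the start, in the printed strand as TTTATA. Neither OTX2 window held any of the 3 motifs, nor the E-box CACGTG, the M-box TCATGTG or the AP-1 motif TGANTCA. Of 35116 promoter windows of that length, 5.62% held TAATCC, 4.35% TAATTA, 10.72% TATAAA, 6.34% CACGTG, 2.52% TCATGTG and 6.57% TGANTCA. RefSeq also places an NBEA start on the opposite strand inside the MAB21L1 window. A match is a string of letters and not a measured binding site.

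Of the 10 genes, 6 share ground with another gene on the opposite strand, which matters for every value below. MAB21L1 (chr13:36047556-36052901, GRCh37, minus strand) lies wholly inside NBEA, a gene for a vesicle-trafficking protein, and MAB21L2 (chr4:151503303-151505845, plus strand) lies wholly inside LRBA, its relative. BEST1 (chr11:61717535-61732987, plus strand) overlaps FTH1, the ferritin heavy chain, over 5798 bp. KRT18 (chr12:53342655-53346690, plus strand) overlaps KRT8 (chr12:53290971-53343738, minus strand) over 1084 bp, and PAX6 (chr11:31806327-31839509, minus strand) overlaps ELP4 over 5546 bp. ELP4 had 119 to 528 reads per library against 631 to 3002 for PAX6. OTX2 (chr14:57266623-57283411), MITF (chr3:69788607-70017487), RPE65 (chr1:68894505-68915637) and RLBP1 (chr15:89753100-89764845) overlapped no other gene in the tables. The sources used here do not give the strand setting of the counting. A check covered pairs in which 1 gene lies inside another on the opposite strand and the inner gene averaged 100 reads or more. Both genes also needed a length, as implied by their RPKM values, within 1% of the span. For 143 of 143 such pairs, the outer gene held at least the reads of the inner gene in all 10 libraries. MAB21L1 and MAB21L2 fell outside that check, with implied lengths of 54.4% and 108.9% of their spans. Both still had fewer reads than NBEA and LRBA in all 10 libraries. Reads of a gene and its opposite-strand partner thus cannot be told apart in these values.

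The libraries held 26633780 to 38225538 reads in the 30 min experiment and 11956652 to 13691014 in the 2 h experiment, as recovered from the steps of the RPKM values. The gene lengths implied by those steps matched the whole gene span, introns included, for 74.9% of 17234 genes, so a gene with long introns has a low RPKM for the same number of transcripts. Within the 30 min experiment, both libraries of replicate 1 stood apart for several of these genes, so the 30 min values are given by replicate. VIM, a mesenchymal intermediate filament gene, was also low there, at 560 and 591 RPKM against 925 to 1105 in the other 4 libraries. FN1, another mesenchymal marker, went the other way, at 225 and 239 RPKM against 156 to 227.

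**Figure D1:**
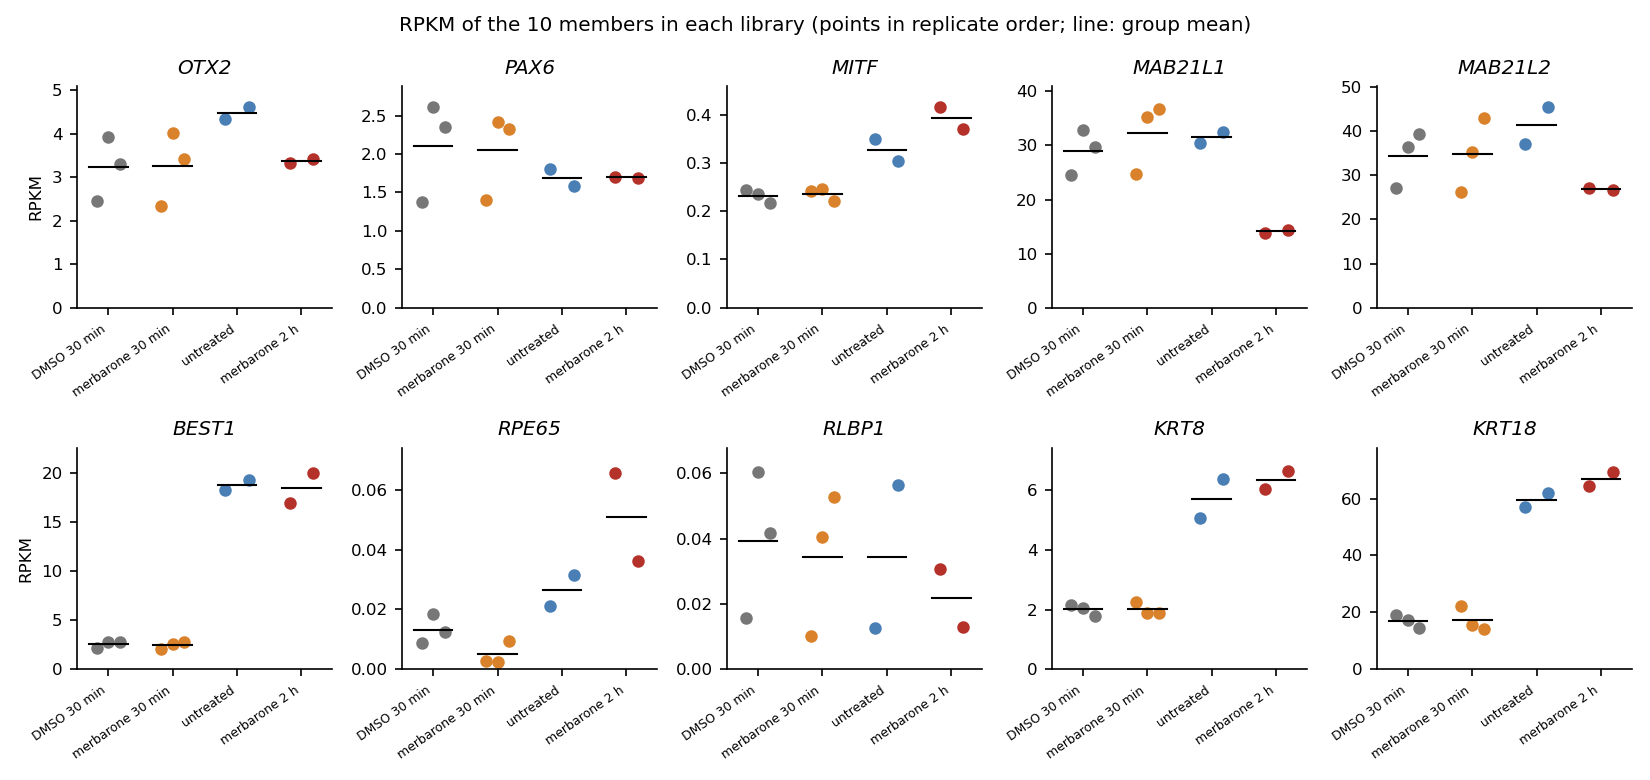
RPKM of each of the 10 genes (vertical axis, linear from 0, 1 panel per gene) in each library, grouped by treatment, with points in replicate order and a line at the group mean. MAB21L1 sits between 24.5 and 36.8 in 8 libraries and near 14 in both 2 h merbarone libraries, while BEST1, KRT8 and KRT18 differ between the experiments and little within them.

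In the DMSO cells the eye-development factors MAB21L2 and MAB21L1 had the highest RPKM of the 10 genes, at 34.4 ± 6.38 and 29.1 ± 4.19 (SD, n = 3), above 98.8% and 98.5% of all genes in the tables. The ranges of these genes overlapped. KRT18 followed at 17.0 ± 2.38, below the lowest MAB21L1 library. OTX2 (3.23 ± 0.74), BEST1 (2.58 ± 0.36), PAX6 (2.11 ± 0.65) and KRT8 (2.00 ± 0.18) followed, and neighbours in that order overlapped in range. MITF stood apart at 0.232 ± 0.013. The visual cycle genes RLBP1 and RPE65 were near the floor at 0.039 ± 0.022 and 0.013 ± 0.0049, which rests on 5 to 22 and 5 to 12 reads per library.

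In the untreated cells the order was KRT18, MAB21L2, MAB21L1, BEST1, KRT8, OTX2, PAX6, MITF, RLBP1 and RPE65. KRT18 was at 59.5 ± 3.63 RPKM (SD, n = 2) and BEST1 at 18.8 ± 0.71. Only RLBP1 and RPE65, with 2 to 8 reads per library, overlapped their neighbour in that order. On a scale of reads per kilobase of summed exons, with the same scaling to the library, MITF moved up most, from 0.232 to 7.16 in DMSO cells, because its 228.9 kb span holds 7.42 kb of exons. In DMSO cells KRT8 moved from rank 7 to rank 4 and BEST1 from rank 5 to rank 7 on that scale. In untreated cells KRT8 moved from rank 5 to rank 3 and BEST1 kept rank 4. RPE65 and RLBP1 remained last on both scales, at 0.108 and 0.253 per exon kilobase in DMSO cells.

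**Figure D2:**
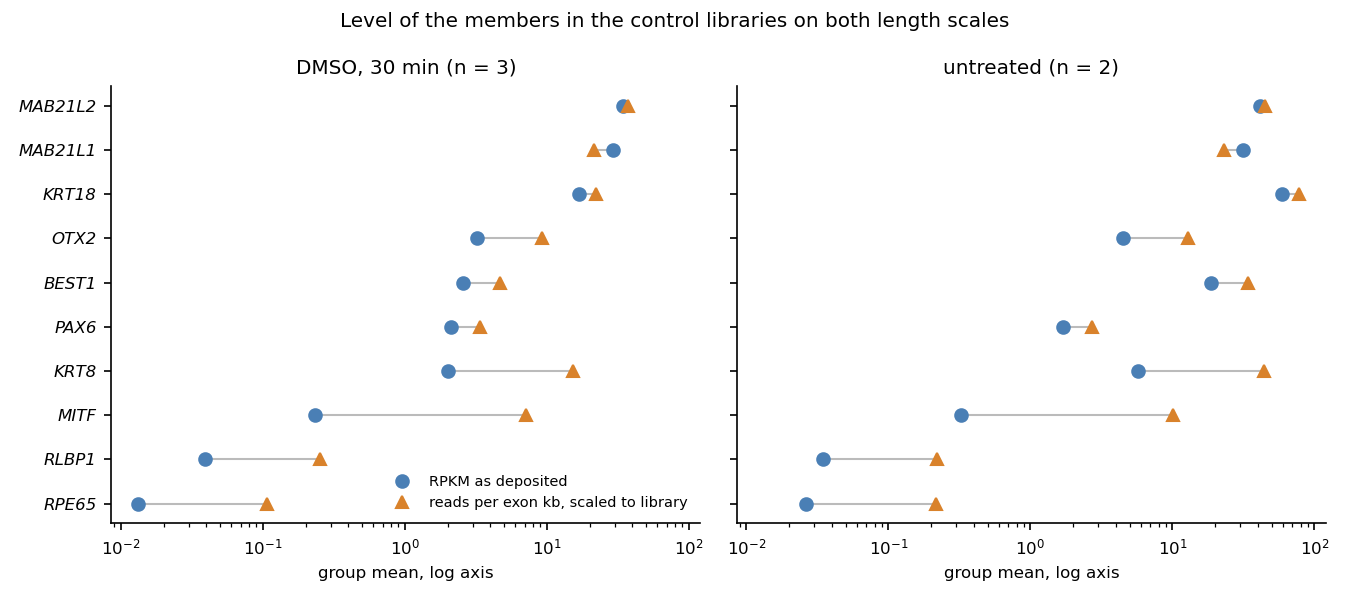
Mean level of each gene in the DMSO libraries (left) and the untreated libraries (right) on a shared log axis, as deposited RPKM (circles) and as reads per kilobase of summed exons (triangles, scaled to the library in the same way), joined by a line. The lines are long for MITF and KRT8, and RPE65 and RLBP1 are lowest on both scales.

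Other markers of a pigment epithelium were unevenly present on the deposited RPKM scale, on which genes with long introns read low. In DMSO cells 7 of 16 visual cycle and retinoid genes, 7 of 18 melanosome genes and 11 of 27 transport, adhesion and matrix genes averaged 1 RPKM or more. Among them the retinol dehydrogenases RDH5 and RDH11 were at 7.81 ± 2.36 and 9.40 ± 0.25 RPKM, and the melanosome matrix gene PMEL at 4.11 ± 0.15 (SD, n = 3). Some genes below 1 RPKM held more on the exon scale. The melanosome genes GPR143 and RAB38 were at 8.38 and 12.5 per exon kilobase in DMSO cells. The counts were not repeated on that scale. All of these examples were chosen after their values were seen. Overlap with other genes was looked up only for the 10 genes and their neighbours, so reads of these examples may be shared with a partner. Among the 27 transport, adhesion and matrix genes, C1QTNF5 and MFRP had identical values in every group, so 1 set of reads counts as 2 genes there. RGR, an opsin of the visual cycle, and CRABP1 were at 0 in every library of every group, as were the early eye genes RAX and SIX6 and the photoreceptor factor CRX. DCT, a melanin synthesis enzyme, was at 0 in all 10 libraries. The eye-field factor SIX3 was high, at 22.3 ± 5.02 RPKM in DMSO cells (SD, n = 3). Mesenchymal markers summed to 1012 to 1520 RPKM per library, most of it VIM, at 884 ± 287 in DMSO cells, and FN1, at 197 ± 35.8 (SD, n = 3). TWIST1 and ZEB1 were at 0.154 and 0.275 RPKM, again on the scale on which genes with long introns read low. Photoreceptor markers summed to 0.42 to 2.11 RPKM and melanocyte markers to 0.05 to 0.19. Of 18 epithelial junction and other keratin genes, 5 averaged 1 RPKM or more in DMSO cells. The junction genes CDH1 and EPCAM held 2 to 4 and 0 to 2 reads per DMSO library. Both were named after their values were seen. Cells labelled as pigment epithelium thus held reads counted for OTX2, PAX6, SIX3, KRT8, KRT18 and some retinoid and melanosome genes. They held little or no RNA of RPE65, RLBP1, RGR, DCT, CDH1 and EPCAM.

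After 30 min of merbarone, none of the 9 genes of the set that could be tested passed the test, and RPE65 was too sparse to test. MAB21L1 read 24.5, 32.8 and 29.8 RPKM in DMSO replicates 1 to 3 and 24.7, 35.3 and 36.8 in merbarone replicates 1 to 3. The groups overlapped, and replicate 1 was lowest in both. The log2 fold change was 0.14 (SE 0.18, 95% interval -0.29 to 0.56, adjusted p = 1.0 by limma with Benjamini-Hochberg adjustment). OTX2 read 2.46, 3.94 and 3.30 against 2.35, 4.03 and 3.42, and PAX6 read 1.37, 2.61 and 2.35 against 1.41, 2.41 and 2.33. In both genes replicate 1 of each group was lowest, at 0.679 and 0.630 of the mean of the other replicates for OTX2 and 0.553 and 0.593 for PAX6. The keratins went the other way, with KRT18 in replicate 1 at 1.21 and 1.49 times the mean of the others.

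The other tested genes gave intervals around 0 as well. MAB21L2 read 27.2, 36.4 and 39.4 RPKM in DMSO replicates 1 to 3 and 26.1, 35.4 and 43.0 in merbarone replicates 1 to 3, again lowest in replicate 1 of each group. BEST1 read 2.17, 2.82 and 2.76 against 2.10, 2.61 and 2.74, and KRT8 read 2.15, 2.07 and 1.80 against 2.25, 1.88 and 1.89. KRT18 read 19.2, 17.2 and 14.5 against 22.3, 15.7 and 14.1, and MITF 0.243, 0.235 and 0.218 against 0.241, 0.245 and 0.221. The groups overlapped in all of these genes. KRT8 had a log2 fold change of 0.001 (95% interval -0.17 to 0.17) and BEST1 of -0.041 (-0.29 to 0.21). MAB21L2 had 0.008 (-0.50 to 0.52), and KRT18 0.015 (-0.42 to 0.45). MITF, which fell under the RPKM filter, was tested on recovered reads with voom, limma's method for counts, and had 0.029 (-0.15 to 0.21, adjusted p = 1.0). RLBP1 had -0.31 with an interval of -1.98 to 1.37, on 4 to 22 reads per library, so a moderate change was not detectable at this depth. RPE65 held 5, 12 and 10 reads in DMSO cells and 2, 2 and 7 after merbarone, and was not tested at 30 min.

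Across all genes, limma called 1 of 6500 at 30 min, which is 0.0154%, and voom called 1 of 14012, which is 0.00714%. The gene limma called was FOS, an immediate-early factor, named after its values were seen. Of the genes in the set, limma called 0 of 7 and voom 0 of 9, and 0 of them had an unadjusted p below 0.05 in either. A fit that takes the replicate number as a block called 8 of 6500 (0.123%), and 0 of the 7. The block narrowed the interval of MAB21L1 to -0.018 to 0.29 (unadjusted p = 0.0738, adjusted p = 1.0), and PAX6 to -0.10 to 0.060. For OTX2 and MAB21L2 the block gave -0.079 to 0.091 and -0.12 to 0.13. KRT8, KRT18 and BEST1 had -0.094 to 0.095, -0.15 to 0.18 and -0.12 to 0.038. Voom with the same block gave MAB21L1 0.14 with an interval of 0.015 to 0.27 (unadjusted p = 0.0322, adjusted p = 1.0).

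After 2 h, the eye-development genes MAB21L1, MAB21L2 and OTX2 fell, while PAX6, BEST1, KRT8 and KRT18 did not pass the test. MAB21L1 fell most. It read 30.5 and 32.5 RPKM in untreated cells and 13.9 and 14.4 after merbarone, so the groups did not overlap and the treated mean was 0.449 of the untreated one. The log2 fold change was -1.10 (SE 0.10, adjusted p = 0.000212), which ranked 4 among 6620 tested genes from the largest fall. In these libraries it rested on 1182 and 1129 reads against 553 and 545. It remained under an adjusted p of 0.05 in all 13 alternative settings tried, with values of -1.16 to -0.98 and adjusted p-values of at most 0.049. In bulk RNA such as this, fewer cells with a transcript and less of it per cell cannot be told apart.

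MAB21L2, the close relative on another chromosome, read 37.2 and 45.6 RPKM in untreated cells and 27.0 and 26.7 after merbarone, 0.649 of the untreated mean. Its log2 fold change was -0.60 (SE 0.12, adjusted p = 0.0163). OTX2, the homeodomain factor of the pigment epithelium, read 4.35 and 4.61 against 3.33 and 3.43, 0.754 of the untreated mean, with a log2 fold change of -0.32 (SE 0.08, adjusted p = 0.0349). Neither pair of groups overlapped, and the groups of KRT18, MITF and the sparse RPE65, which were not called, did not overlap either. The share of all genes without overlap was not counted, here or for MAB21L1. Each of these calls was lost in 4 settings of those tried, while the values stayed between -0.74 and -0.45 for MAB21L2 and between -0.41 and -0.29 for OTX2. With no filter on low genes the adjusted p was 0.131 for MAB21L2 and 0.111 for OTX2, and in a fit of all 10 libraries 0.128 and 0.313. Without merbarone 2 h replicate 1 the adjusted p was 0.0557 for MAB21L2 and 0.348 for OTX2, and without replicate 2 it was 0.0597 and 0.218.

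PAX6 read 1.80 and 1.59 RPKM in untreated cells and 1.70 and 1.69 after merbarone, a log2 fold change of 0.001 with a 95% interval of -0.16 to 0.17. BEST1 read 18.3 and 19.3 against 17.0 and 20.0 (-0.025, interval -0.28 to 0.23). KRT18 read 56.9 and 62.0 against 64.2 and 69.4, without overlap, and its log2 fold change of 0.17 did not pass the test (adjusted p = 0.346). KRT8, its partner in the filament, read 5.06 and 6.38 against 6.05 and 6.64 and gave 0.13 (adjusted p = 0.446, and 0.046 without untreated replicate 2). MITF read 0.349 and 0.303 against 0.415 and 0.370. Tested on reads with voom, it gave 0.27 with an adjusted p of 0.134, which became 0.0311 with the replicate block. Over 6 alternatives the value ranged from 0.071 to 0.372, and 4 of them left MITF uncalled.

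The visual cycle genes were too sparse for a firm reading. RPE65 held 6 and 8 reads in untreated cells and 19 and 10 after merbarone, a log2 fold change of 0.88 with an interval of -0.094 to 1.85 (adjusted p = 0.22 by voom). RLBP1 held 2 and 8 reads against 5 and 2 and was not tested. Their change was not detectable at this depth.

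Limma called 3 of the 7 tested genes of the set at 2 h, all lower. Of all 6620 genes tested, 13.1% were called, with 5.98% higher and 7.1% lower. Voom called the same 3 genes among the 9 it tested, where 14.0% of 13440 genes passed. The median log2 fold change of the 7 genes was -0.025, and that of all tested genes was -0.048.

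**Figure D3:**
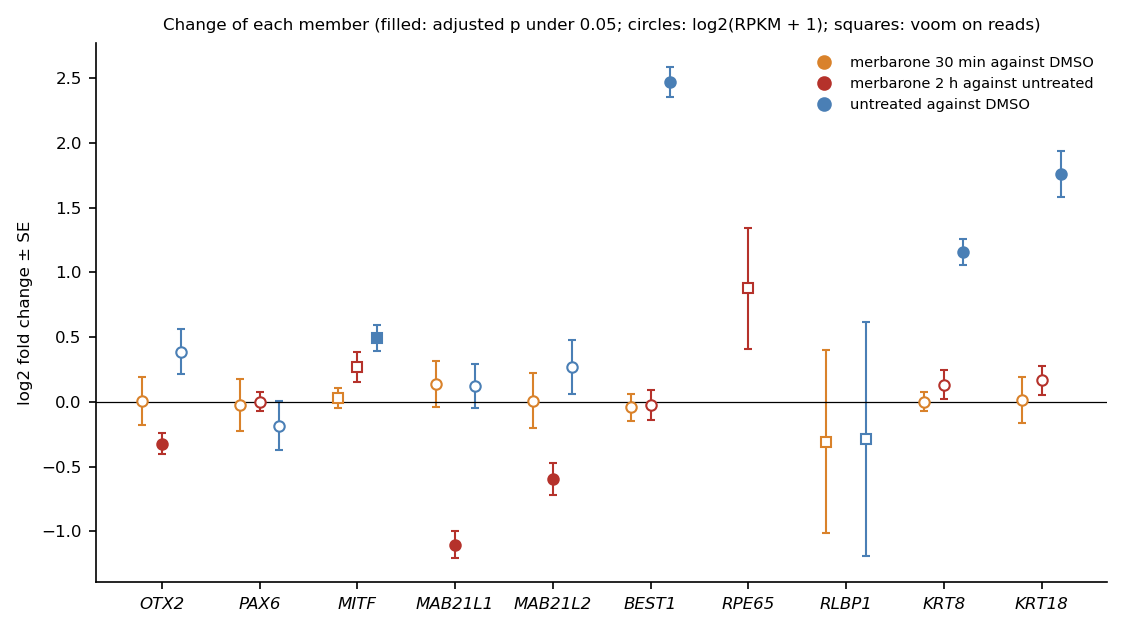
Log2 fold change with its SE (vertical axis) of each gene in 3 comparisons, with filled symbols for an adjusted p under 0.05, circles for limma on log2(RPKM + 1) and squares for voom on reads. At 2 h MAB21L1 (-1.10), MAB21L2 (-0.60) and OTX2 (-0.32) lie below 0, no 30 min symbol is filled, and BEST1, KRT8 and KRT18 lie above 0 between the controls.

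The difference between the 2 h effect and the 30 min effect was tested over all 10 libraries. Time, vehicle and experiment cannot be told apart in that contrast. MAB21L1 was called, at -1.24 (SE 0.24, 95% interval -1.78 to -0.70, adjusted p = 0.0373), where 1.63% of 6558 genes were called. The call was lost in 11 of 18 settings, among them no filter (adjusted p = 0.0614), quantile normalization (0.0558), voom (0.0925) and the omission of any library other than DMSO replicate 2 and merbarone 30 min replicate 1 (0.0607 to 0.188). The value ranged from -1.41 to -1.09. MAB21L2 gave -0.61 (adjusted p = 0.356) and OTX2 -0.33 (adjusted p = 0.575). With the replicate block the adjusted p was 0.000421 for MAB21L1, 0.0121 for MAB21L2 and 0.0135 for OTX2, and 1255 genes were called in place of 107.

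The host gene NBEA also carried fewer reads at 2 h as deposited, and the reads counted for MAB21L1, which lies within it, equalled a large share of them. The MAB21L1 count was 73.4% and 75.1% of NBEA reads in untreated cells and 49.3% and 51.7% after merbarone. As RPM, which scales reads to the library total and not to length, MAB21L1 went from 88.7 and 94.4 to 40.4 and 41.8, while NBEA less MAB21L1 went from 32.2 and 31.4 to 41.6 and 39.0. Voom gave NBEA a log2 fold change of -0.60 as counted (adjusted p = 0.00083) and of 0.34 after the MAB21L1 reads were subtracted (adjusted p = 0.0796). That subtraction was added after the values had been seen.

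LRBA behaved in the same direction with smaller values. The MAB21L2 count was 58.4% and 66.5% of LRBA reads in untreated cells and 48.1% and 51.3% after merbarone. LRBA less MAB21L2 read 73.3 and 63.5 RPM in untreated cells and 80.9 and 70.3 after merbarone, with overlapping groups. Its log2 fold change was -0.29 as counted (adjusted p = 0.0705) and 0.14 after subtraction (adjusted p = 0.466). The subtraction assumes that every read counted for a nested gene was also counted for its host, and which gene those reads came from was not tested. The counts of the nested genes and the rest of the host counts had opposite signs at 2 h in both loci, and only the falls of the nested genes passed the test.

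**Figure D4:**
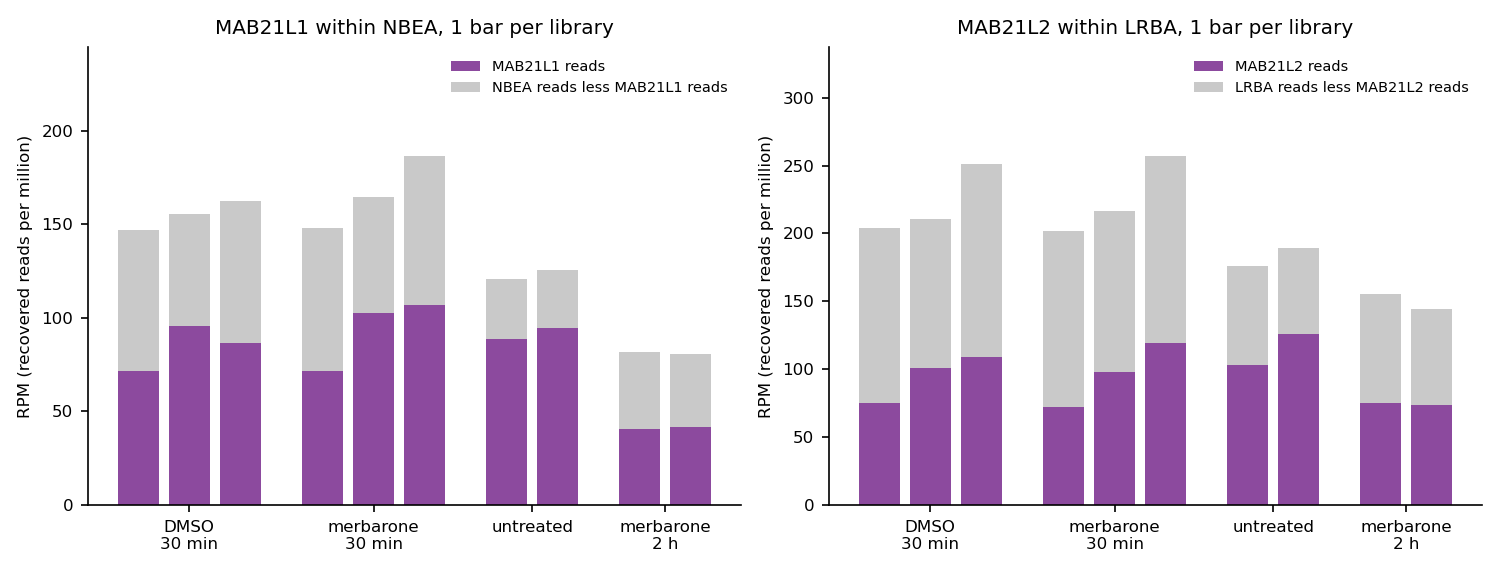
Recovered reads scaled to the library total (RPM, vertical axis, stacked from 0, 1 bar per library) of MAB21L1 within NBEA (left) and MAB21L2 within LRBA (right), with the nested gene in purple and the rest of the host in grey. The purple part of both 2 h merbarone bars at NBEA is near 41 against 88.7 and 94.4 in untreated cells, and the grey part is a little taller.

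The untreated and DMSO controls differed for BEST1, KRT18, KRT8 and MITF, which were all higher in untreated cells. The vehicle and the experiment cannot be told apart in this comparison, and the experiments also differ in depth. BEST1 read 2.17, 2.82 and 2.76 RPKM in DMSO cells and 18.3 and 19.3 in untreated cells, 7.27 times higher, with a log2 difference of 2.47 (SE 0.11, adjusted p = 1.6e-06 by limma). KRT18 read 19.2, 17.2 and 14.5 against 56.9 and 62.0, 3.51 times higher (log2 difference 1.76, adjusted p = 0.00012). KRT8 read 2.15, 2.07 and 1.80 against 5.06 and 6.38, 2.86 times higher (1.16, adjusted p = 4.86e-05). None of these groups overlapped. Those of OTX2, which was not called, and of the sparse RPE65, which was not tested here, did not overlap either. The share of all genes without overlap was not counted.

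MITF read 0.243, 0.235 and 0.218 RPKM in DMSO cells against 0.349 and 0.303, a log2 difference of 0.49 by voom (adjusted p = 0.00483). PAX6 (-0.18), MAB21L1 (0.12), MAB21L2 (0.27) and OTX2 (0.39, adjusted p = 0.108, but 0.0475 without DMSO replicate 2 and 0.0424 without merbarone 30 min replicate 1) did not pass the test. Limma called 3 of the 7 tested genes of the set where 41.2% of 6558 genes were called and 26.7% were higher. With voom 4 of 9 were called, where 33.0% of 13900 genes were called. The share of higher genes among those called was 64.8% as deposited and 47.3% after median scaling, and BEST1, KRT18 and KRT8 stayed called and higher under every scaling tried.

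The values beside these differences concern the neighbours and copies of the same genes. FTH1, which shares 5798 bp with BEST1, went from 10.4 ± 2.60 RPKM (SD, n = 3) to 59.0 ± 5.84 (SD, n = 2), 5.69 times higher. BEST1 reads were 42.5% to 71.9% of FTH1 reads over the 10 libraries. KRT18 and KRT8 have 68 and 51 pseudogenes named after them in the GRCh37 annotation, FTH1 has 25, and BEST1, MITF, PAX6 and both MAB21L genes have 0. Of 82 tested genes with 10 or more named pseudogenes, 64 were higher in untreated cells and 0 lower, with a median log2 difference of 0.72 against 0.075 for all genes. That group was chosen after the keratin values had been seen, and the part of overlapping genes, copies and read handling in the differences was not tested. KRT80 and KRT7, type II keratins like KRT8, were higher as well, by 1.30 and 0.86 on the log2 scale. PLEC, of the same list of epithelial junction and other keratin genes, was lower (-0.90). Of the 5 tested genes of that list 3 were called, 2 higher and 1 lower, beside 41.2% called over all genes. Of 47 tested genes of the wider lists described next, 22 were called in this comparison, 14 higher and 8 lower, which is 46.8% beside the 41.2% called over all genes. Among them were the smooth muscle actin gene ACTA2 (2.45), TAGLN (1.17), FN1 (-1.34) and the retinaldehyde dehydrogenase gene ALDH1A3 (-1.18).

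Wider lists put the falls at 2 h beside other genes of the same lineage. Of 31 further eye-field and ocular transcription factors, 8 were tested and 4 were called, where 13.1% of all genes were called. HES1, a target of Notch signalling, rose from 1.36 and 1.39 RPKM to between 8.65 and 10.5 (log2 fold change 2.15, adjusted p = 7.48e-06). FOXC1, a factor of the anterior segment, rose by 0.92. SIX3, a factor of the early eye field and forebrain, fell by 0.44 (adjusted p = 0.026), and NR2F2, an orphan nuclear receptor, fell by 0.40. NR2F2, and S100A4 below, were named after their values were seen. The median of the 8 was -0.23 against -0.048 for all genes. By voom 5 of 16 were called, and the median was 0.24 against 0.0 for all genes. The list's median thus differed in sign, but the fits covered different sets, 8 and 16 genes of the list.

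In 3 lists of differentiated pigment epithelium genes, the share called at 2 h was near the 13.1% called over all genes. In the visual cycle and retinoid list 1 of 7 tested genes was called, DHRS3, a retinaldehyde reductase, which rose by 0.49. In the melanosome list it was 1 of 7, BLOC1S1, a subunit of a complex for lysosome-related organelles, which fell by 0.39. In the transport, adhesion and matrix list it was 1 of 12, VEGFA, the vascular growth factor, which rose by 1.07 (log2 scale, adjusted p = 0.000217). That list counts C1QTNF5 and MFRP as separate genes, though their values were identical in every group. Medians of these lists were 0.012, -0.016 and -0.019. By voom 2 of 10, 2 of 13 and 2 of 18 genes were called, where 14.0% of all genes were.

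Among epithelial junction genes and other keratins, 1 of 5 tested genes was called, the desmosome gene DSP, which rose by 0.47. Of 10 tested mesenchymal markers 4 were called. Both counts stand beside 13.1% called over all genes, and voom called 3 of 10 and 6 of 13, beside 14.0%. The repressors SNAI1 and SNAI2, which shut off epithelial genes, rose by 1.30 and 0.76, the matrix gene FN1 rose by 1.13, and S100A4 fell by 0.43. The median of the mesenchymal list was 0.085. Of the photoreceptor and melanocyte markers none reached the RPKM filter, and of the fibroblast markers PDGFRB was tested and was not called (log2 fold change 0.30, adjusted p = 0.0767). By voom 1 of 3 photoreceptor, 0 of 1 melanocyte and 1 of 4 fibroblast markers were called. They were NRL, a rod photoreceptor factor, which rose from 0.385 ± 0.009 to 1.42 ± 0.34 RPKM (SD, n = 2 each, log2 fold change 1.85, adjusted p = 1.76e-07), and PDGFRB, which rose by 0.35 (adjusted p = 0.0302). Both are named after their values were seen. The part of other cell types in the results at 2 h was not tested. At 30 min limma called 0 of 48 tested genes of these lists and voom 0 of 90, and 0 of them had an unadjusted p below 0.05 in either fit. In the difference between the 2 h and 30 min effects limma called 5 of 47, where 1.63% of all genes were called, and all 5 were higher: HES1 (2.24), SNAI1 (1.31), VEGFA (1.06), FOXC1 (0.94) and SNAI2 (0.77). Voom called 3 of 90, HES1, VEGFA and NRL, where 0.475% of 13900 genes were called. There the adjusted p was 0.132 for SNAI1, 0.125 for SNAI2 and 0.151 for FOXC1.

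**Figure D5:**
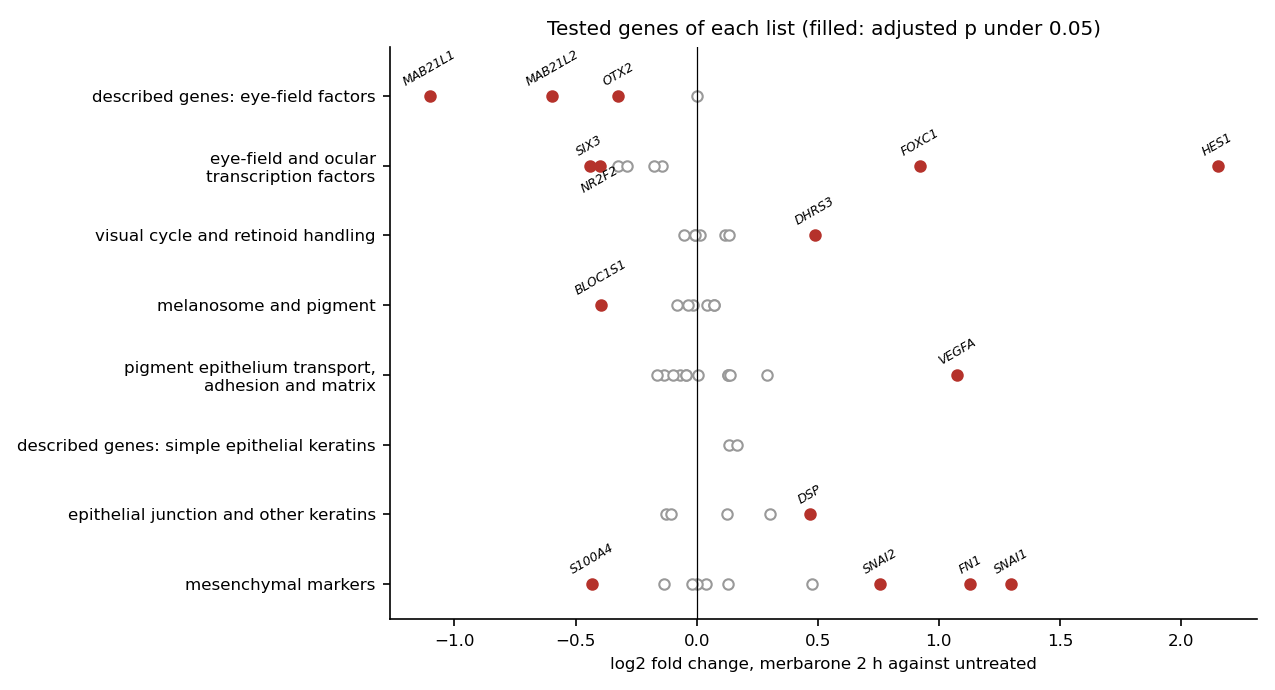
Log2 fold change at 2 h (horizontal axis) of every tested gene of 8 lists (rows), with filled red points and names for an adjusted p under 0.05. MAB21L1, MAB21L2 and OTX2 lie below 0 and PAX6 near it, HES1 and FOXC1 lie at 2.15 and 0.92, and most pigment epithelium genes cluster near 0.

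The genes whose pattern over the 10 libraries was most like each of the 7 better-measured genes were found by Pearson correlation of log2(RPKM + 1), after the mean of each experiment was removed, among 6557 other genes. The libraries share replicate numbers and depth, so these values describe the libraries and carry no p. PMP22 was nearest to MAB21L1 (r = 0.984), followed by ARHGEF39 and DBNDD1 (0.975 each). C1orf54 was nearest to MAB21L2 (0.979), KIF22 to OTX2 (0.990) and FADS1 to PAX6 (0.997). An Ensembl gene without a symbol in the tables, ENSG00000256861, was nearest to BEST1 (0.971), followed by DNAL4 (0.963) and LTA4H (0.954). ABCA2 was nearest to KRT8 (0.949), and LCMT2 to KRT18 (0.972).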

How the data were processed

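Polyadenylated RNA from 10 libraries was sequenced after TruSeq Stranded mRNA preparation from 150 ng of total RNA, per the labels' protocols. Per the file headers, the values deposited by the authors are RPKM, listed by Ensembl identifier in a separate table for each library. The submitters' processing notes name Bowtie 1.2.0, deepTools 2.4.1 and the build GRCh37 (hg19). The annotation and the read counter are not given in the sources used here.

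From these values, whole reads were recovered for 17680 of 17680 genes above 0. Symbols were matched for 19174 of 20327 genes. Spans and overlaps are those of GENCODE v44 lifted to GRCh37, and need not be the regions counted: the steps imply 9.8 kb for OTX2 against a span of 16.8 kb, and 2.9 kb for MAB21L1 against 5.3 kb. Limma 3.58.1 (R 4.3.3) tested log2(RPKM + 1), two-sided, for genes averaging 1 RPKM or more in the libraries fitted. Its p-values were adjusted by Benjamini-Hochberg over all genes tested, with a threshold of 0.05. Fold changes on that scale understate the change of low genes. Genes below the filter were tested with limma's voom on recovered reads (mean of at least 10). Each merbarone effect was fitted within its experiment, and the difference of effects and the control comparison over all 10 libraries. Limma draws the spread of each gene toward a prior from all genes. At 2 h it had 2 residual degrees of freedom beside 6.96 prior ones, or 18.5 by voom.

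The replicate numbers of the labels were used as a block in an alternative. At 30 min, same-numbered libraries deviated together (correlations 0.924, 0.652 and 0.605 over 6558 genes). Unlike numbers gave -0.708 to 0.355. The main fit took no pairs, and the numbers were taken as pairs only in the alternative.

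The 10 genes were given, and the lists, the named genes and the alternatives were chosen with earlier results of these data known. Named genes were the 10, their overlapping neighbours, up to 3 called genes with the largest change per list and comparison, and the 3 genes most like each of the 7 better-measured ones. Tests and read recovery were checked on simulated data. Plots used matplotlib 3.10.9.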

Additional observations from a re-analysis of the deposited data

Results flagged for a closer look

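The test of the difference between the 2 merbarone effects called MAB21L1. The 2 h effect less the 30 min effect was -1.24 on the log2(RPKM + 1) scale (SE 0.24, adjusted p = 0.0373 by limma). The call was lost in 11 of 18 alternatives, with adjusted p-values of 5.72e-06 to 0.188 over all of them, 0.0925 by voom and 0.0558 after quantile normalization, and with values of -1.41 to -1.09. MAB21L1 was lower in 2 of 2 merbarone libraries at 2 h than in any untreated library, and at 30 min the groups overlapped. Time, kind of control and experiment cannot be told apart in this difference.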

How the results depend on the processing

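Over 36 member results and 487 alternative fits, 418 kept direction and side of the threshold, 19 lost a call, 9 gained one, none of the called results changed sign, and 41 uncalled values changed sign near 0. Among neighbours, NBEA at 2 h went from -0.60 to 0.34 once MAB21L1 reads were subtracted. By number of genes called, the 30 min comparison gave 1 by default, 0 without a filter, 2 at a mean of at least 5 RPKM, under median scaling, under quantile normalization and in a fit of all 10 libraries, and 0 to 2 when 1 library was left out (0 without DMSO replicate 2 or merbarone replicate 2, 2 without merbarone replicate 3). The 2 h comparison gave 866, 53 without a filter, 397 at 5 RPKM, 1886 by voom, and 328 to 2464 when 1 library was left out (328 and 398 without merbarone replicates 1 and 2, 2464 and 1311 without untreated replicates 1 and 2). The difference gave 107, 361 without a filter, 36 at 5 RPKM, 66 by voom and 38 to 86 with 1 library left out (38 and 42 without merbarone 2 h replicates 2 and 1, 47 without untreated replicate 2, 62 without merbarone 30 min replicate 2 or 3). The control comparison gave 2702, 4760 without a filter, 986 at 5 RPKM, 4592 by voom and 1541 to 2783 with 1 library left out (1541 without untreated replicate 2). The cause of these moves was not tested, beyond the number of genes tested under each filter.

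With the replicate block, the calls were 8 at 30 min (13 by voom), 2129 at 2 h (3438 by voom) and 1255 for the difference (2094 by voom). In the 2 h block fits, 1 residual degree of freedom stood beside an infinite prior. Their p-values thus rest on the spread shared across genes, not on that of each gene. The prior was also infinite when either merbarone 2 h library was left out. At 2 h the labels' numbers gave 2 pairs with a correlation of 0.314. With 2 libraries a group, centring makes the value for unlike numbers its mirror, so whether the numbers pair these libraries was not tested. The control comparison has no block fit. Levels of the low genes RPE65 and RLBP1 are limited by depth, with 2 to 22 reads per library.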
